A study of Salmo salar with 16 samples.

Results

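The SLC25 proteins are the carriers of the inner mitochondrial membrane. The members were the genes of the deposited salmon annotation whose description or exon product named solute carrier family 25, an ADP/ATP translocase, a calcium-binding mitochondrial carrier protein or a mitochondrial uncoupling protein, together with the gene s2540. This rule found 76 of the 81574 genes in the count table. It used no measured value.

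RNA-Seq counts came from 16 libraries of Atlantic salmon (Salmo salar), with 4 libraries each of mid brain, pituitary gland, ovary and liver. Per the study's methods, the tissues came from 4 female fish of a selective breeding programme, immature and 3 years old, and no treatment or altered allele separated the groups. Each library was a whole-tissue extract, so fewer cells of a type and less RNA per cell cannot be told apart.

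The inner mitochondrial membrane lets few solutes through unaided, and each carrier exchanges a small set of them between the cytosol and the matrix. ADP/ATP carriers bring in ADP and send out ATP, and other carriers move phosphate, carboxylates, amino acids, carnitine esters, cofactors or iron. Uncoupling proteins belong to the same family, and the founding one lets protons back into the matrix without ATP synthesis. The shared ancestor of the salmonids went through a whole-genome duplication, so many carriers have several copies in the salmon genome.

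Levels are given as FPKM, the counts per kilobase of merged exon and per M counts of the library after correction by the trimmed mean of M values (TMM). Means carry the SD over 4 libraries, and per-library values run from replicate 1 to replicate 4. Overlaps between libraries refer to these TMM-corrected levels, and another scaling can change them. In edgeR's quasi-likelihood test a difference between 2 tissues counted as a call when its Benjamini-Hochberg adjusted p, over all genes tested, did not exceed 0.001 and its log2 fold change reached 2. A member was tissue-specific when it was called higher in 1 tissue than in each of the other 3.

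Library totals ran between 20.6 M and 51.9 M counts. By list, 8 of 8 tested pituitary hormone genes, 15 of 15 tested liver plasma protein genes and 19 of 22 tested egg coat genes were called highest in pituitary gland, liver and ovary, in that order. A further 2 egg coat genes were liver-specific, and that list summed to 20890 to 24110 CPM in liver and 3637 to 4480 CPM in ovary. In brain, 13 of 22 tested neuron genes and 7 of 8 tested myelin genes were brain-specific, but the 4 brain libraries differed among themselves. Ependymin-1, a secreted brain glycoprotein, took 14.96% and 11.7% of the counts in brain replicates 3 and 4, whereas the most abundant gene took 1.47% and 0.799% in replicates 1 and 2. The summed neuron list had 7028, 8672, 5119 and 1870 CPM in brain, and the summed myelin list had 32781, 15754, 16935 and 2737 CPM. Counts of members called in brain are also given without brain replicates 3 and 4.

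Of the 76 members, 71 passed the filter on low counts. The unplaced members LOC106594414, LOC106594330 and LOC106596270 had no count in any library, and LOC106606774 and LOC106612205 were too low to test. The level of 64 members reached an FPKM of at least 1 in some tissue, and that of 30 members in every tissue.

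The family as a whole was called about as often as other genes. At least 1 of the 6 tissue pairs was called for 57 of the 71 tested members (80.3%), against 71.1% of all genes tested. Tissue specificity was called for 19 members (26.8%), against 25.2% of all genes tested. The ovary held 10 of these members (background 11.1%), the brain 5 (6.11%; 9 members without brain replicates 3 and 4), the liver 4 (5.8%; 5 without them) and the pituitary gland 0 (2.16%). The background shares are those of the fit with all libraries. The pituitary count of 0 came from edgeR and was 0 with the DESeq2 Wald test as well. At an unadjusted p under 0.05 in edgeR, 3 members were higher in pituitary gland than in each other tissue. The same limit gave 12 members for brain, 18 for ovary and 18 for liver, and its share over all genes was not computed. Pituitary gland against brain had 1 member called higher (4.91%) and 8 called lower (10.7%).

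Members fell below all other tissues most often in ovary and liver, and so did all genes tested. The lowest level was called in ovary for 7 members (9.86%, background 7.21%) and in liver for 6 (8.45%, background 4.61%). It was called in brain for 1 (1.41%, background 0.551%) and in pituitary gland for 1 (1.41%, background 0.607%). Ovary against liver had the most members called, with 37 of 71 (52.1%) in either direction against a background of 40.8%. Of these, 20 were higher in ovary (22.3%) and 17 were lower (18.5%), and the median log2 fold change of the tested members was 0.15 against 0.38 for all genes tested.

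The other pairs stood as follows. Brain had 19 members higher than ovary (27.6%) and 15 lower (19%), and 16 higher than liver (22.1%) and 11 lower (10.8%), in all 27 against a background of 32.9%. Pituitary gland had 12 members higher than ovary (22.3%) and 16 lower (18.9%), and 10 higher than liver (17.3%) and 13 lower (10.9%), in all 23 against a background of 28.2%. By direction, the member shares furthest from background were liver above pituitary gland at 18.3% against 10.9%, pituitary gland above ovary at 16.9% against 22.3%, and liver above brain at 15.5% against 10.8%. Whether they differ from background was not tested. Without brain replicates 3 and 4, 14 members differed between brain and pituitary gland, against 9 with them, 37 against 34 between brain and ovary, and 32 against 27 between brain and liver. The shares of all genes were not computed without these libraries, so the change in counts has no background. Among the members described below, LOC106601335, LOC106581769 and slc25a24 were then called between brain and pituitary gland, slc25a20, slc25a13, slc25a24 and LOC100194554 between brain and ovary, and LOC106586953 between brain and liver. LOC106581201 became liver-specific, and the calls of brain over ovary for it and for LOC106565132 were lost.

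**Figure D1:**
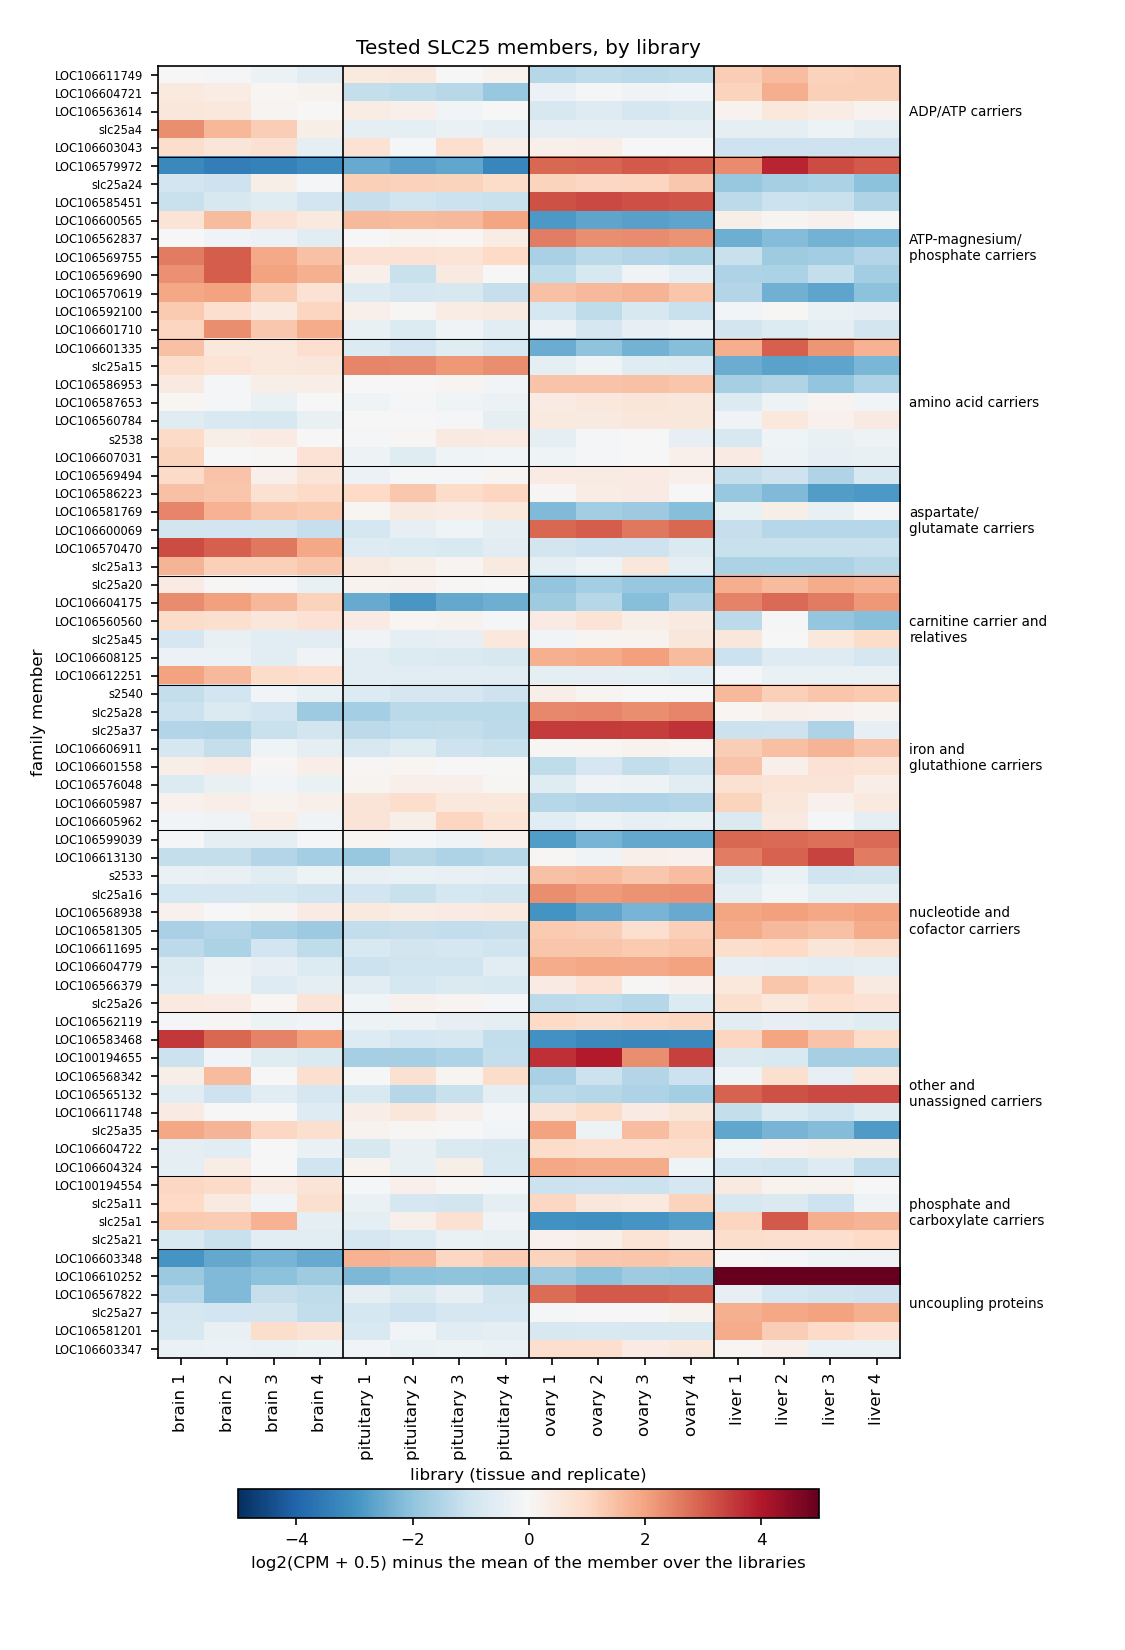
Levels of the 71 tested members (down the page, by role group) in the 16 libraries (across), as log2(CPM + 0.5) minus the mean of the member over all libraries, with red above and blue below it. The 4 libraries of a tissue mostly share a colour, and within most role groups different members are red in different tissues.

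The ADP/ATP carriers made up most of the summed FPKM of the 76 members in all tissues but ovary. Their share was 76.2% ± 1.23 in brain, 73.9% ± 1.59 in pituitary gland, 73.9% ± 1.02 in liver and 48.5% ± 0.77 in ovary (SD, n = 4 each). Carriers of the family under other product names, given at the end of the Results, are not in these shares. They summed to 576 to 653 CPM in brain, 555 to 637 in pituitary gland, 739 to 791 in ovary and 1385 to 1796 in liver. In the same order, the 76 members averaged 2053, 2013, 2045 and 4083 CPM. The summed FPKM of all members averaged 2543 ± 361 in liver, 1292 ± 203 in brain, 1292 ± 178 in pituitary gland and 1056 ± 40 in ovary. This order depends on the scaling. With plain library totals the sums were 1769.6 in brain, 1519 in ovary and 1307 in liver, because the TMM factors of liver were 0.494 to 0.538 and those of brain were 1.24 to 1.46. As a share of the raw counts, the members took 0.184% to 0.216% in the pituitary libraries, 0.192% to 0.245% in the liver libraries, 0.228% to 0.347% in the brain libraries and 0.282% to 0.302% in the ovary libraries.

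**Figure D2:**
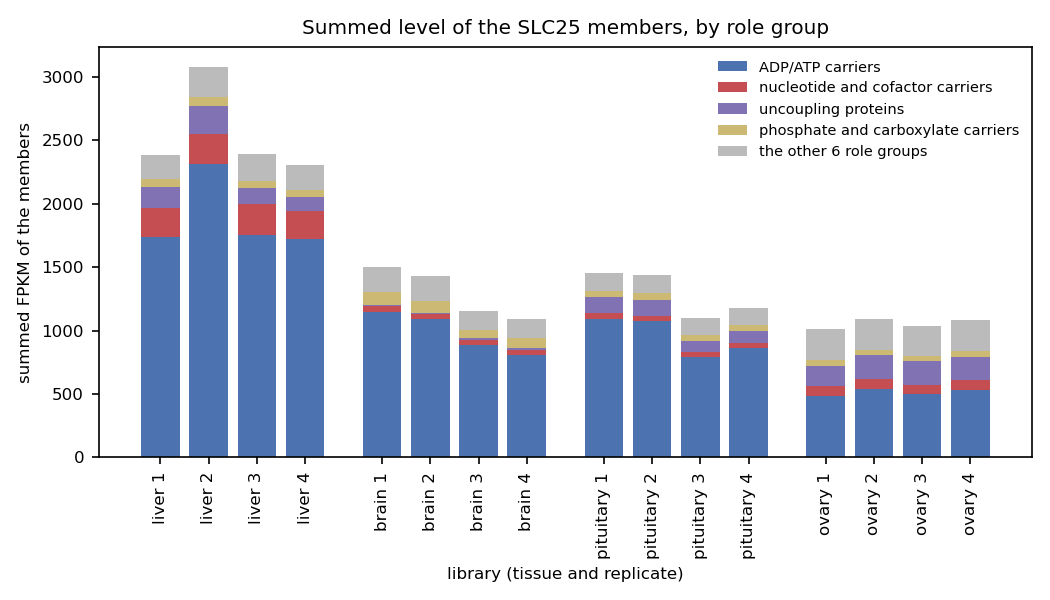
Summed FPKM of the 76 members found by the rule in each library (bars, 4 per tissue), split by role group. The ADP/ATP carriers fill most of each bar except in ovary, where they hold 48.5% of the sum, and liver replicate 2 is the tallest bar at 3081.

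The ADP/ATP translocase 2-like genes LOC106611749, LOC106604721 and LOC106563614 carried nearly all of this level. The first, on chromosome 9 (63434558 to 63437294 on ICSASG_v2), had the highest level of any member in liver and pituitary gland, with 1011, 1252, 952 and 972 FPKM in liver, 601, 623, 436 and 490 in pituitary gland, 426, 401, 356 and 287 in brain, and 160, 178, 167 and 179 in ovary. The 4 tissues did not overlap for this gene at the TMM scaling. It was called for liver over ovary (log2 fold change 2.61 ± 0.18 SE, adjusted p = 1.5e-09), but with plain library totals the fold change was 1.13 and not called. In plain totals liver, pituitary gland and brain overlapped. Their replicate 1 had 14650 of 20.6 M, 21715 of 28.9 M and 19181 of 23.2 M counts, in that order. LOC106604721 on chromosome 5, a further member named after its values were seen, averaged 429 ± 109 FPKM in liver, 206 ± 26.7 in brain, 149 ± 9.73 in ovary and 62.9 ± 12.8 in pituitary gland. LOC106563614 on chromosome 11 was among the 3 most even members of the family. Its means were 411 ± 79.4 FPKM in brain, 405 ± 48.5 in liver, 356 ± 56.7 in pituitary gland and 193 ± 10.8 in ovary, and no tissue pair was called.

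The remaining ADP/ATP carriers were rare. The gene annotated as slc25a4 is named for the carrier that predominates in heart and skeletal muscle of mammals. It had 2.04, 1.19, 0.798 and 0.247 FPKM in brain, at most 0.0453 FPKM in pituitary gland, at most 0.0166 in ovary and at most 0.0612 in liver. Over each group these levels rest on 282 counts in brain, 2 in pituitary gland, 2 in ovary and 1 in liver. The ratio of brain to pituitary gland was 88.4 (95% counting interval 24.3 to 734), that of brain to ovary 134 (36.6 to 1108) and that of brain to liver 74.2 (13.2 to 2941). It was brain-specific, and when each tissue pair was fitted alone edgeR's adjusted p moved past the threshold (brain over liver 5.89 on the log2 scale, adjusted p = 0.0011, and brain over pituitary gland 6.20, adjusted p = 0.0012), while the filter of 1 CPM removed the gene. The summed skeletal muscle list had 159, 685, 999 and 1102 CPM in the same brain libraries (20 of 119 listed genes tested, 60 at no count). Over tissues the sum ran between 81.2 and 104 CPM in pituitary gland, 14.7 and 22.4 in ovary and 7.59 and 11.6 in liver. Of the tested genes of this list, 4 were brain-specific, 5 pituitary-specific, 1 ovary-specific and 1 liver-specific. The part of muscle in the slc25a4 level was not tested. LOC106603043, another translocase 2-like gene, had no count in any liver library. In brain it was at least 3.64-fold above the floor of 3 counts in each liver library.

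The uncoupling proteins were divided among tissues by gene. UCP2 is the member found in many tissues of mammals, where its function is still debated. LOC106603348, annotated as mitochondrial uncoupling protein 2 and lying on chromosome 4 (44947168 to 44951247 on ICSASG_v2), had 118, 113, 72.9 and 85.6 FPKM in pituitary gland, 77.3, 92.0, 93.4 and 86.1 in ovary, 36.2, 33.4, 30.8 and 31.8 in liver, and 4.33, 5.73, 6.78 and 5.88 in brain. Pituitary gland and ovary overlapped, and brain lay below every other library. It was the only member called lowest in brain, with log2 fold changes of 4.10 ± 0.18 for pituitary gland, 3.94 ± 0.18 for ovary and 2.54 ± 0.17 for liver over brain (adjusted p = 3.9e-10, 1.7e-11 and 2.4e-09). With plain library totals liver over brain was 1.15 and not called, and the gene was then not called lowest in brain.

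The UCP2-like gene LOC106610252, on chromosome 8 (16090006 to 16094508 on ICSASG_v2), was almost silent outside the liver. It had 98.0, 162, 70.5 and 52.4 FPKM in liver and between 0.0208 and 0.137 FPKM in the other 12 libraries. The liver libraries varied about 3-fold among themselves but all stood far above the rest. The smallest of its 3 log2 fold changes was liver over ovary at 9.73 ± 0.46 (adjusted p = 2.2e-11), the largest margin of any tissue-specific member.

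A second UCP2-like gene, LOC106567822 on chromosome 13 (79855364 to 79858786), was highest in ovary. It had 73.9, 90.3, 88.6 and 85.1 FPKM in ovary, 7.60, 6.19, 7.68 and 5.45 in pituitary gland, 7.67, 5.59, 5.12 and 4.88 in liver, and 3.64, 1.997, 4.48 and 4.15 in brain. No ovary library overlapped another tissue, and the smallest log2 fold change was ovary over pituitary gland at 3.65 ± 0.23 (adjusted p = 6.8e-10). Of its exon length of 1556 bases, 44 bases overlap a gene on the opposite strand, and the strand setting of the counting was not given in the sources used here.

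Both remaining UCP2-like genes were low. LOC106581201 on chromosome 20 had 1.28, 0.739, 0.573 and 0.452 FPKM in liver and at most 0.0214 FPKM in ovary, and its brain libraries spread between 0.0133 and 0.533. LOC106603347 lies next to LOC106603348 on chromosome 4, on the same strand, with 8704 bases and no annotated gene between them. The neighbours differed in level by over 100-fold in ovary, where LOC106603347 averaged 0.256 ± 0.072 FPKM and LOC106603348 averaged 87.2 ± 7.33. slc25a27, a further member named after its values were seen, encodes UCP4, which is known from the nervous system of mammals. Here it averaged 19.8 ± 1.63 FPKM in liver, 5.31 ± 0.432 in ovary, 2.66 ± 0.19 in pituitary gland and 2.48 ± 0.317 in brain.

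**Figure D3:**
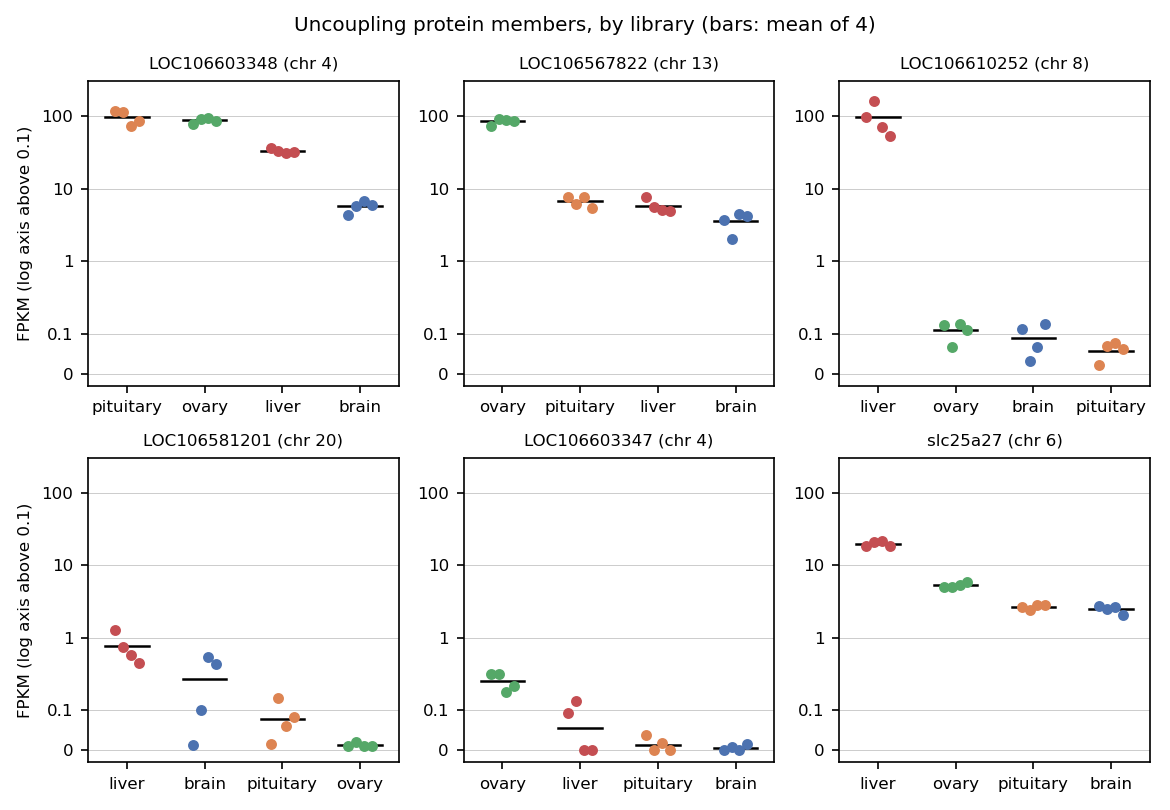
FPKM of the 6 uncoupling protein members in each library (points) with the mean of the 4 libraries (bars), on an axis that is logarithmic above 0.1 and linear below it, with the tissues of each panel in falling order. LOC106610252 reaches 52.4 to 162 in liver and stays at or below 0.137 elsewhere, and LOC106603348 is lowest in brain.

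Both mitoferrin genes found by the rule were ovary-specific. Mitoferrins bring iron into the matrix for haem and iron-sulphur cluster synthesis, and mitoferrin-1 is best known from developing red cells of zebrafish and mouse. slc25a37, which encodes mitoferrin-1 and lies on chromosome 20 (23283188 to 23294332), had 22.1, 21.7, 21.6 and 23.7 FPKM in ovary, 0.8289, 0.849, 0.576 and 1.37 in liver, 0.612, 0.595, 0.805 and 0.943 in brain, and 0.688, 0.727, 0.764 and 0.685 in pituitary gland. The ovary libraries differed by less than 10% and lay far above all others, with a smallest log2 fold change of 4.62 ± 0.22 for ovary over liver (adjusted p = 2.7e-11). slc25a28, the mitoferrin-2 gene and a further member named after its values were seen, averaged 22.5 ± 0.894 FPKM in ovary, 4.70 ± 0.202 in liver, 1.89 ± 0.589 in brain and 1.46 ± 0.175 in pituitary gland. Its smallest log2 fold change was 2.26 ± 0.19 for ovary over liver (adjusted p = 1.4e-08), and it was no longer called when that pair was fitted alone.

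Haem synthesis ends with the insertion of iron in the matrix. Of 15 tested genes of haem synthesis, 6 were higher in ovary than in brain (background 19%), 5 than in pituitary gland (18.9%) and 4 than in liver (22.3%). The median log2 fold change of the list was 1.54 for ovary over brain, 1.496 for ovary over pituitary gland and 1.29 for ovary over liver, against -0.20, 0.04 and 0.38 for all genes tested. Both ferrochelatases, which insert iron into the porphyrin ring, were ovary-specific. fech averaged 17.7 FPKM in ovary, 2.20 in liver, 2.12 in brain and 1.02 in pituitary gland, and LOC106572189 averaged 20.3 in ovary, 3.91 in liver, 3.09 in brain and 1.43 in pituitary gland. The haemoglobin list summed to 9.42 to 17.0 CPM in ovary, 266 to 1010 CPM in liver, 49.9 to 301 CPM in brain and 47.1 to 592 CPM in pituitary gland (18 of 35 listed haemoglobin genes tested, 8 at no count). The part of red cells in the mitoferrin levels was not tested.

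Glutathione carriers of the SLC25A39 and SLC25A40 type import the matrix pool of glutathione in mammalian cells. The most abundant of them was s2540, with 39.4, 29.4, 33.4 and 31.6 FPKM in liver, 15.4, 14.03, 12.9 and 12.6 in ovary, 5.46, 6.35, 11.6 and 9.82 in brain, and 7.80, 7.05, 7.03 and 6.07 in pituitary gland. Liver lay above all other libraries, and the calls were liver over pituitary gland (2.26 ± 0.20 on the log2 scale, adjusted p = 7.8e-08) and liver over brain (2.01 ± 0.20, adjusted p = 2.2e-07). With plain library totals neither was called, at 1.31 over pituitary gland and 0.63 over brain. In those totals liver and ovary overlapped, as ovary replicate 1 had 1485 of 30.6 M counts and liver replicate 1 had 954 of 20.6 M. The call over brain, close to the fold threshold, was also lost without the filter (1.98), without brain replicate 1 (1.85) or 2 (1.897) and without liver replicate 1 (1.92). Its relative LOC106576048 was the second most even member, with means of 3.42 ± 0.443 FPKM in liver, 2.48 ± 0.202 in pituitary gland, 1.64 ± 0.272 in brain and 1.62 ± 0.273 in ovary.

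The ATP-magnesium/phosphate carriers (SCaMC) adjust the adenine nucleotide pool of the matrix and are gated by calcium. This was the largest role group, with 13 members and 10 tested. LOC106585451, an SCaMC-2-A-like gene on chromosome 24, had 14.1, 15.02, 14.4 and 13.4 FPKM in ovary and between 0.342 and 0.823 in the other 12 libraries. It was ovary-specific, with a smallest log2 fold change of 4.45 ± 0.18 for ovary over brain (adjusted p = 4.6e-12). The second SCaMC-2-A-like gene, LOC106579972 on chromosome 20, was high in ovary and liver alike. It had 19.0, 53.1, 36.03 and 31.7 FPKM in liver, 27.1, 27.9, 31.1 and 29.7 in ovary, 0.473, 0.389, 0.444 and 0.208 in pituitary gland, and 0.212, 0.157, 0.178 and 0.230 in brain. Ovary lay inside the range of the liver libraries, and the log2 difference of liver over ovary was 0.27 ± 0.24 (adjusted p = 0.32). Liver over brain was 7.51 ± 0.34 and ovary over brain 7.23 ± 0.33 on the same scale (adjusted p = 2.8e-11 and 1.7e-11). The likeness of ovary and liver depends on the TMM scaling. The raw counts were 3110, 3112, 3102 and 3201 in ovary, from library totals of 25.4 M to 30.6 M. In liver they were 548, 1632, 1053 and 1006, from totals of 20.6 M to 23.2 M.

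Among the SCaMC members brain had its own genes, at lower levels. LOC106569690, an SCaMC-1-like gene, had 4.35, 7.44, 3.65 and 3.07 FPKM in brain and at most 1.11 in pituitary gland, 0.656 in ovary and 0.245 in liver. Its smallest log2 fold change was 2.58 ± 0.43 for brain over pituitary gland (adjusted p = 0.00011), lost when that pair was fitted alone (adjusted p = 0.0017). LOC106601710, an SCaMC-3-like gene, had 0.439, 1.22, 0.559 and 0.861 FPKM in brain and at most 0.0978 elsewhere. The call of brain over pituitary gland (3.71 ± 0.65, adjusted p = 0.00018) was lost without pituitary replicate 1, 2 or 4, at log2 fold changes of 3.75, 3.46 and 3.58.

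**Figure D4:**
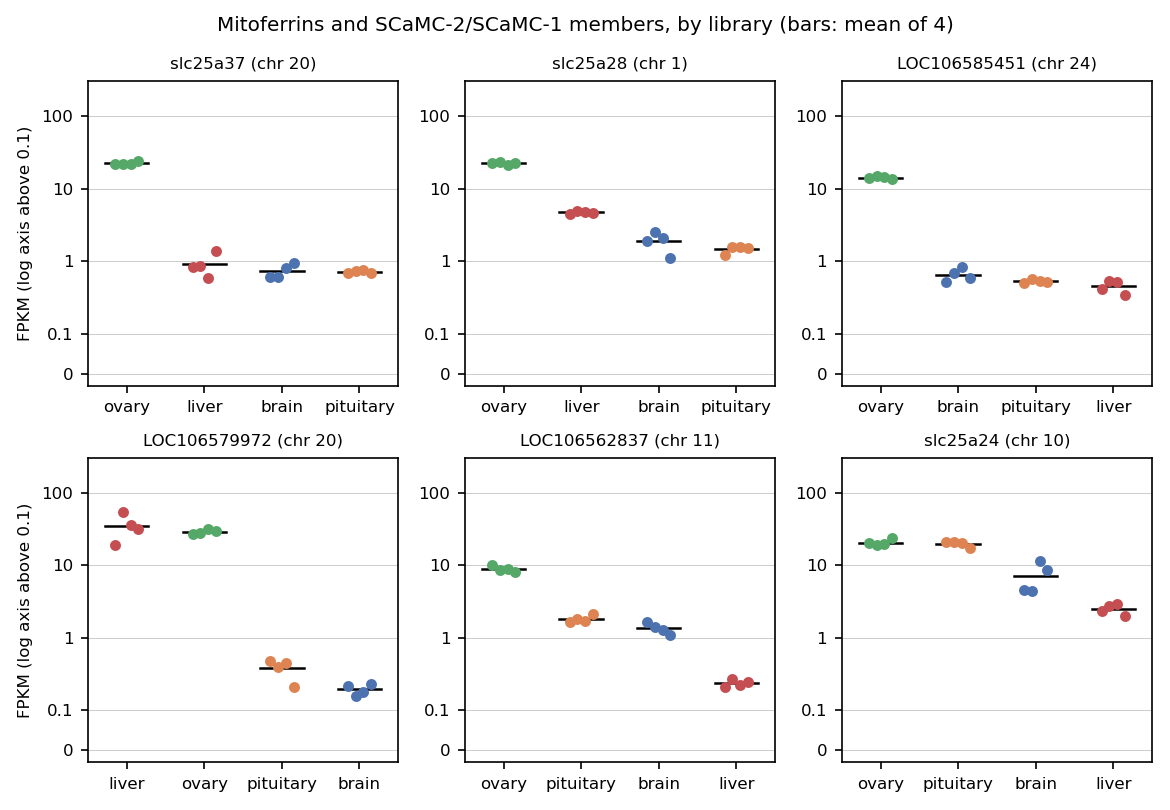
FPKM of the 2 mitoferrin genes, 3 SCaMC-2 type genes and slc25a24 in each library (points) with the mean of the 4 libraries (bars), on an axis that is logarithmic above 0.1 and linear below it, with the tissues of each panel in falling order. slc25a37, slc25a28, LOC106585451 and LOC106562837 stand highest in ovary without overlap, whereas LOC106579972 is high in both liver and ovary.

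Aspartate/glutamate carriers send aspartate out of the matrix and complete the malate-aspartate shuttle, which brings reducing equivalents of cytosolic NADH into mitochondria. The group's summed FPKM averaged 25.6 ± 7.35 in brain, 15.5 ± 0.967 in ovary, 14.2 ± 1.44 in pituitary gland and 4.35 ± 0.823 in liver. The main gene was the Aralar1-like LOC106569494, with 14.3, 19.8, 8.63 and 11.5 FPKM in brain, 9.77, 9.68, 9.70 and 8.71 in ovary, 5.89, 6.83, 6.72 and 8.06 in pituitary gland, and 3.04, 3.44, 2.45 and 4.11 in liver. Brain overlapped ovary, and liver lay below every other library. The call of brain over liver (2.06 ± 0.22, adjusted p = 5.3e-07) was lost without brain replicate 2 (1.82) and without liver replicate 3 (1.94).

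Of the other aspartate/glutamate carriers, LOC106570470 was brain-specific and LOC106600069 ovary-specific. The first, annotated as Aralar2-like, the other vertebrate form of the carrier (citrin), had 2.73, 2.22, 1.70 and 1.0001 FPKM in brain, at most 0.0608 in pituitary gland and 0.0407 in ovary, and no count in liver. Brain was at least 26.3-fold above the floor of 3 counts in each liver library, and brain over pituitary gland was 5.27 ± 0.50 on the log2 scale (adjusted p = 2.3e-06). Its brain values were lowest in replicate 4, the brain library with the smallest neuron and myelin sums, and the part of the cell mix in this was not tested. LOC106600069, an Aralar1-like gene on chromosome 3, had 2.68, 2.98, 2.26 and 2.63 FPKM in ovary and at most 0.183 in any other library. Over the groups it had 1512 counts in ovary and 1 in liver, a ratio of 420 (95% counting interval 75.3 to 16600), and ovary over pituitary gland was 4.34 ± 0.38 on the log2 scale (adjusted p = 3.2e-08). slc25a13, a further member named after its values were seen and the gene of citrin, which is the main liver form in mammals, averaged 0.865 ± 0.177 FPKM in brain, 0.360 ± 0.0497 in pituitary gland, 0.234 ± 0.137 in ovary and 0.00528 ± 0.0106 in liver, with 573 counts in brain and 1 in liver. That ratio was 151 (95% counting interval 26.95 to 5965).

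Of 16 tested malate-aspartate shuttle enzymes, 2 were ovary-specific (background 11.1%), 2 liver-specific (5.8%) and 1 pituitary-specific (2.16%), and the list's median log2 fold change for ovary over liver was 0.20, against 0.38 for all genes tested. Both ovary-specific ones were cytoplasmic malate dehydrogenase-like genes, LOC106577387 at 79.0 FPKM and LOC106577388 at 77.6 FPKM in ovary, against at most 7.56 FPKM on average in another tissue. The liver-specific ones were aspartate aminotransferases, the mitochondrial-like LOC106562243 at 209 FPKM in liver and the cytoplasmic-like LOC106589763 at 49.2 FPKM in liver.

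Among the amino acid carriers, SLC25A38 imports glycine for haem synthesis in yeast and human cells. LOC106601335, an SLC25A38-B-like gene on chromosome 3, had 11.3, 25.8, 15.2 and 10.9 FPKM in liver, 8.98, 4.63, 4.56 and 5.67 in brain, 1.88, 1.55, 2.002 and 1.66 in pituitary gland, and 0.441, 0.670, 0.484 and 0.613 in ovary. The 4 tissues did not overlap, and liver over ovary was 4.84 ± 0.32 on the log2 scale (adjusted p = 8.4e-10). Liver against brain was not called, and the gap between them depends on the TMM scaling. Brain replicate 1 had 1034 of 23239082 counts, and liver replicate 2 had 1019 of 23169283. The same-named copy of LOC106601335, LOC106586953 on chromosome 2, ran the other way between ovary and liver. It had 13.3, 12.98, 13.3 and 12.8 FPKM in ovary and 1.46, 1.63, 1.16 and 1.58 in liver (ovary over liver 3.17 ± 0.14, adjusted p = 9.8e-12). LOC106587653, an SLC25A44-like gene of the type that carries branched-chain amino acids in mammals, was the most even member. Its means were 7.07 ± 0.392 FPKM in ovary, 4.58 ± 0.587 in brain, 4.21 ± 0.316 in pituitary gland and 4.17 ± 0.991 in liver, and with plain library totals ovary over liver passed the threshold at 2.25.

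slc25a15, the mitochondrial ornithine carrier and a further member named after its values were seen, had 14.4, 14.2, 11.8 and 13.3 FPKM in pituitary gland, 4.68, 4.06, 3.63 and 3.76 in brain, 1.70, 2.03, 1.53 and 1.45 in ovary, and 0.207, 0.146, 0.153 and 0.282 in liver. No 2 tissues overlapped, and liver was called lowest (pituitary gland over liver 6.07 ± 0.23, adjusted p = 5.0e-12). Ornithine carbamoyltransferase (otc), the matrix enzyme that uses the imported ornithine, averaged 58.7 FPKM in ovary, 6.24 in liver, 3.70 in pituitary gland and 2.76 in brain and was ovary-specific. Of 10 tested urea cycle and ornithine genes, 3 were ovary-specific (background 11.1%) and 2 liver-specific (5.8%), and the list's median log2 fold change was 1.02 for ovary over brain, against -0.20 for all genes tested.

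The carnitine carrier takes acylcarnitines into the matrix for fatty acid oxidation. slc25a20 had 39.5, 33.7, 41.4 and 38.05 FPKM in liver, 12.6, 12.9, 11.5 and 11.5 in pituitary gland, 14.8, 11.5, 10.7 and 8.45 in brain, and 2.67, 3.29, 2.80 and 2.77 in ovary. Liver lay highest and ovary lowest without overlap, and liver over ovary was 3.73 ± 0.16 on the log2 scale (adjusted p = 7.2e-12). Liver against brain and liver against pituitary gland were not called. In plain library totals liver and brain overlapped, as brain replicate 1 had 892 of 23.2 M counts and liver replicate 1 had 767 of 20.6 M. The carnitine acyltransferases, which make and use these esters, had 3 liver-specific genes among 12 tested (background 5.8%), with a list median of -0.43 for liver over ovary against -0.38 for all genes tested. LOC106573415, a liver-type carnitine palmitoyltransferase 1, averaged 132 FPKM in liver and at most 0.619 in another tissue, and cpt1b averaged 13.5 in liver and at most 0.269 elsewhere.

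Relatives of the carnitine carrier differed sharply. LOC106612251, an SLC25A48-like gene, had 1.23, 0.869, 0.453 and 0.407 FPKM in brain, 0.0909, 0.0427, 0.0449 and 0.0413 in liver, at most 0.0235 in ovary and no count in pituitary gland. It was brain-specific, at least 13.4-fold above the floor of 3 counts in each pituitary library and 3.71 ± 0.62 on the log2 scale over liver (adjusted p = 0.00013). The second SLC25A48-like gene, LOC106604175 on chromosome 5, was the only member called lowest in pituitary gland, on 4, 0, 4 and 5 counts there. It averaged 11.6 ± 2.33 FPKM in liver, 7.23 ± 2.58 in brain, 0.356 ± 0.133 in ovary and 0.0641 ± 0.0442 in pituitary gland. The call of ovary over pituitary gland in edgeR was lost when that pair was fitted alone (2.25 on the log2 scale, adjusted p = 0.0024) and without pituitary replicate 1 or 3 or ovary replicate 2 or 4 (2.21 to 2.53, adjusted p = 0.0011 to 0.0013).

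Nucleotide and cofactor carriers had a summed FPKM of 234 ± 10.7 in liver, 78.9 ± 3.17 in ovary, 41.4 ± 2.52 in pituitary gland and 38.1 ± 2.99 in brain. LOC106599039 and LOC106613130 made up 182 of the liver sum, and the other 8 members summed to 68.6 ± 3.53 in ovary, 51.4 ± 3.34 in liver, 20.8 ± 0.221 in pituitary gland and 20.4 ± 1.04 in brain. SLC25A36 carries pyrimidine nucleotides into mitochondria. LOC106599039, an SLC25A36-A-like gene on chromosome 3, had 133, 129, 123 and 131 FPKM in liver, 19.2, 17.1, 16.0 and 21.3 in pituitary gland, 17.3, 13.1, 13.1 and 16.8 in brain, and 2.45, 3.498, 2.96 and 2.92 in ovary. Liver was tightly grouped and highest, and ovary was lowest, with liver over ovary at 5.44 ± 0.17 (adjusted p = 4.5e-13) and liver over pituitary gland at 2.81 ± 0.15 (adjusted p = 1.5e-10). A second gene of this name, LOC106613130 on chromosome 9, had 41.6, 55.3, 74.4 and 42.8 FPKM in liver, 7.27, 6.04, 8.26 and 8.04 in ovary, 2.90, 2.95, 2.37 and 2.02 in brain, and 1.72, 2.504, 2.28 and 2.46 in pituitary gland. It was liver-specific with a smallest log2 fold change of 2.85 ± 0.20 for liver over ovary (adjusted p = 2.2e-09). With plain library totals neither gene was liver-specific, at 1.86 for liver over pituitary gland in LOC106599039 and 1.36 for liver over ovary in LOC106613130.

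Phosphate and carboxylate carriers feed oxidative phosphorylation and export citrate and malate. LOC100194554, the SLC25A3 gene, whose protein brings in the phosphate for ATP synthesis, had 74.6, 71.4, 46.7 and 56.2 FPKM in brain, 49.96, 41.4, 40.6 and 36.1 in liver, 35.3, 43.8, 37.8 and 35.2 in pituitary gland, and 17.0, 17.7, 17.0 and 20.4 in ovary. Ovary lay below all other libraries at the TMM scaling. In plain library totals it overlapped liver, as ovary replicate 1 had 1255 of 30.6 M counts and liver replicate 2 had 820 of 23.2 M. Brain over ovary was 1.79 ± 0.16 on the log2 scale, under the fold threshold in the main setting. It was above the threshold at 2.01 with DESeq2 size factors and at 2.15 without brain replicates 3 and 4. slc25a1, a gene of the citrate carrier that supplies carbon for fatty acid synthesis and a further member named after its values were seen, averaged 5.46 ± 3.65 FPKM in liver, 2.76 ± 1.44 in brain, 1.31 ± 0.556 in pituitary gland and 0.0275 ± 0.0152 in ovary. It was called lowest in ovary, with pituitary gland over ovary at 5.53 ± 0.66 (adjusted p = 1.3e-06). These values are of slc25a1 alone. The tricarboxylate transport protein gene LOC106568272, outside the rule and given at the end of the Results, averaged a higher FPKM in every tissue.

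Carriers without an assigned substrate were also split. LOC100194655, annotated as solute carrier family 25-2, had 13.2, 16.5, 5.03 and 11.1 FPKM in ovary, 0.164, 0.633, 0.369 and 0.317 in brain, 0.319, 0.299, 0 and 0 in liver, and 0, 0, 0.0233 and 0.127 in pituitary gland. All ovary libraries lay above the rest, and ovary over brain was 4.90 ± 0.68 on the log2 scale (adjusted p = 5.6e-06). LOC106565132, an SLC25A34-like gene on chromosome 12, had 5.42, 6.46, 7.01 and 7.005 FPKM in liver and at most 0.329 in any other library (liver over brain 4.79 ± 0.42, adjusted p = 5.1e-08). It lies 71299 bases from slc25a20, with 3 genes between them. LOC106562119, the SLC25A46 gene, whose protein sits in the outer mitochondrial membrane and acts in mitochondrial shape, had 21.1, 18.2, 21.1 and 21.2 FPKM in ovary, 9.86, 10.9, 8.71 and 9.35 in brain, 8.68, 8.57, 7.68 and 7.21 in pituitary gland, and 6.98, 7.74, 7.41 and 6.75 in liver. Ovary was highest without overlap, but the largest log2 fold change, ovary over liver at 1.498 ± 0.11, stayed under the threshold of 2 except with plain library totals (2.98).

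Copies with the same product name were compared within each library, where the scaling of the library has no effect. Copies were matched by product name alone and no sequences were compared. Whether same-named copies are duplicates of the same gene was not tested. The 76 members held 47 such pairs, drawn from 47 members, and both copies were tested in 39. In 21 of these 39 pairs the copies had their highest level in different tissues, and in 18 pairs the more abundant copy per kilobase was not the same gene in all tissues. These counts were not made for same-named pairs of other genes, so they have no background. The pairs are not independent, since genes in families of 3 or more enter several. The mean log2 ratio of the counts (0.5 added to each) differed between tissues by 1.13 to 13.46, with a median of 4.46.

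Two-sided exact permutation tests compared the ratio between tissues in 234 cases. Libraries were permuted as independent groups in all cases, also in pituitary gland against liver, so fish shared between tissues were not taken into account. With 4 libraries against 4 the smallest p is 0.0286, which adjusted over all these tests was 0.0423. It was reached in 158 tests, and 37 of the 39 pairs had at least 1 such test. Same-named pairs of other genes were not tested, so this count has no background either. The 5 pairs with the widest ranges were chosen for that range, so their values are a description.

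The UCP2-like pair LOC106567822 and LOC106610252 had the widest range. Their log2 ratio averaged 9.34 ± 0.517 in ovary, 6.54 ± 0.81 in pituitary gland, 5.17 ± 0.589 in brain and -4.12 ± 0.632 in liver (SD, n = 4 each). The copy on chromosome 13 thus had the higher count in ovary, pituitary gland and brain, and the copy on chromosome 8 in liver. The ratio of LOC106603347 to LOC106610252 averaged 1.30 ± 0.74 in ovary and -10.50 ± 0.911 in liver, and that of LOC106567822 to LOC106581201 averaged 11.62 ± 0.277 in ovary and 2.48 ± 0.349 in liver.

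The Aralar1-like pair LOC106581769 and LOC106600069 had a log2 ratio of 5.55 ± 0.41 in brain, 5.07 ± 1.07 in liver, 2.71 ± 0.477 in pituitary gland and -5.83 ± 0.928 in ovary. LOC106581769 had 5.08, 3.10, 2.37 and 2.24 FPKM in brain and at most 0.106 in ovary, and 62 bases of its exons overlap a gene on the opposite strand. The SLC25A38-B-like pair LOC106586953 and LOC106601335 had a log2 ratio of 5.16 ± 0.303 in ovary, 2.04 ± 0.148 in pituitary gland, 0.58 ± 0.34 in brain and -2.77 ± 0.58 in liver. Where a copy had few or no counts, the added 0.5 limits the ratio, as for LOC106603347 outside ovary and LOC106600069 in liver.

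**Figure D5:**
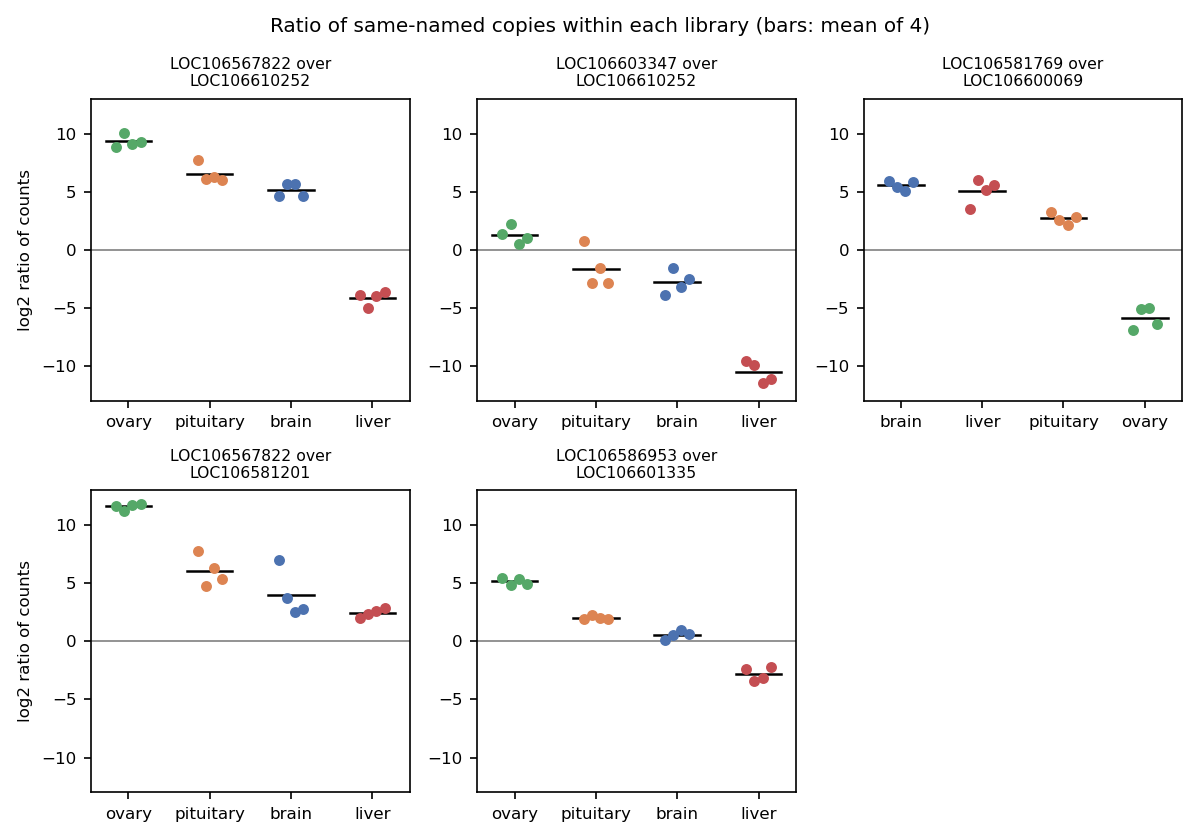
Log2 ratio of the counts of 2 same-named copies within each library (points) with the mean of the 4 libraries (bars), for the 5 pairs with the widest ranges and the tissues of each panel in falling order. Above 0 the first-named copy has more counts. In 4 of the 5 pairs the mean changes sign between tissues, and LOC106567822 stays above LOC106581201 in all 4 tissues.

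Import proteins and related transporters were counted in the same way. The small Tim proteins and TIM22 guide carrier precursors into the inner membrane. Of 11 tested genes of this list, 3 were higher in ovary than in brain (background 19%), 6 than in pituitary gland (18.9%) and 4 than in liver (22.3%), and 1 was lower in ovary than in liver (18.5%). Its median log2 fold change was 1.04 for ovary over brain, 2.16 for ovary over pituitary gland and 1.62 for ovary over liver, against -0.20, 0.04 and 0.38 for all genes tested. The list summed to 234 to 252 CPM in ovary, 100 to 123 CPM in liver, 85.5 to 109 CPM in brain and 67.2 to 80.1 CPM in pituitary gland. The most restricted was LOC106572334, a Tim8 A-like gene, with 13.5 FPKM in ovary and at most 0.696 on average in another tissue.

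The voltage-dependent anion channels, which pass the same solutes through the outer membrane, had 10 genes tested. Of these channels, 2 were higher in ovary than in liver (background 22.3%) and 2 were lower (18.5%). Their median log2 fold change for ovary over liver was 0.04, against 0.38 for all genes tested. In the mitochondrial pyruvate carrier list, which belongs to another family, 1 of 4 tested genes was liver-specific (background 5.8%), LOC106612504 with 245 FPKM in liver, 41.7 in brain, 22.5 in ovary and 18.2 in pituitary gland. A further 50 genes bear product names of this family without the words of the rule, and 41 of them were tested. Of these, 4 were ovary-specific (background 11.1%) and 2 liver-specific (5.8%), shares no higher than over all genes. The liver-specific ones were LOC106573008, a second carnitine/acylcarnitine carrier at 34.4 FPKM in liver and at most 1.04 elsewhere, and LOC106568272, a tricarboxylate transport protein at 103 FPKM in liver, 8.45 in brain, 6.65 in ovary and 2.23 in pituitary gland.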

How the data were processed

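Per the labels and the study's methods, poly(A) RNA of 16 tissue samples was sequenced from TruSeq stranded libraries. The authors mapped reads with TopHat2 to ICSASG_v2 and counted unique reads on exons with HTSeq, and the deposited counts are raw. Reads shared by near-identical copies were thus left out, which can lower recent duplicates. The deposited centered log2 table of 26247 genes holds 56 members and equals log2(count + 1) minus the gene's mean, and was not used for tests. The deposited annotation gave product names, positions and merged exon lengths, and coordinates are on ICSASG_v2.

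All 16 libraries of the whole table entered 1 fit in edgeR 4.0.16 (R 4.3.3) with tissue as the only term, TMM factors, filterByExpr, estimateDisp, glmQLFit and glmQLFTest, which left 37043 genes. The standard error is the absolute log2 fold change over the square root of F. On simulated counts for brain over liver, 85.5% of 200 genes changed 8-fold among 36370 genes were recovered with 0 false calls. The changed genes were drawn only from genes above a minimum mean count, and no other gene differed between tissues. The recovery thus does not cover members with few counts. In the measured counts, 12191 of 37043 genes were called between brain and liver. The rate of false calls with that many genes changed was not tested. Counting intervals are exact at 95% and, like the floor of 3 counts in each library, cover counting error only. The members, lists and role groups were chosen with earlier results of these data known, and the list of further carrier genes after the files were read. The role groups follow product names.

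Members named by rule were the most abundant of each role group, up to 5 tissue-specific members per tissue, the 3 most even members and the 5 same-named pairs with the widest ratio range. Members called further members, and the genes of the lists named in the text, were chosen after their values were seen, as were the other members shown in a figure. DESeq2 1.42.0 size factors and Wald test, plain totals, no filter, a filter of 1 CPM in 4 libraries, a fit on each pair, a replicate block and leaving out libraries were the alternatives. The 4 samples of each tissue came from the study's 4 fish, and neither labels nor methods say whether a number marks the same fish in different tissues. Deviations of same-numbered libraries from their tissue means correlated at -0.0024 to 0.158, above 0.1 in 10 of 24 pairs. All 4 pairs exceeded 0.1 only for pituitary gland against liver, so the numbers were taken as pairs in that comparison, from the data, and in no other. The limit of 0.1 is arbitrary, and pituitary gland against ovary came close at 0.105, 0.117, 0.112 and 0.0775. Ovary against liver had 0.0853, 0.0923, 0.102 and 0.0894, whereas ovary and liver libraries of different numbers all correlated negatively. Fold changes and calls printed for pituitary gland against liver are from the fit without a block, and the effect of the block is given below.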

Additional observations from a re-analysis of the deposited data

Results flagged for a closer look

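Dixon's test at the 95% level was run on 122 groups of 4 libraries, and with normally distributed values chance alone flags about 1 in 20 groups. It marked 8. The marks of slc25a4, LOC106600069, LOC106612251 and LOC106581201 rest on at most 2 counts in a library, where that rate does not apply. In ovary, LOC106569494 had 21.6 CPM in replicate 4 against 23.97 to 24.2 in the others, LOC106562119 had 41.0 CPM in replicate 2 against 47.4 to 47.6, and LOC106581201 had 0.0475 CPM in replicate 2 against 0.0231 to 0.0265. In liver, LOC106612251 had 0.184 CPM in replicate 1 against 0.0834 to 0.0906, LOC106600069 had 0.0918 CPM in replicate 1 and no count in the others, and slc25a4 had 0.0906 CPM in replicate 3 and no count in the others. In pituitary gland, slc25a4 had 0.0671 CPM in replicate 3 and no count in the others. The summed FPKM of the members was 3081 in liver replicate 2 against 2308 to 2396 in the other liver libraries.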

How the results depend on the processing

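Of the 426 tests of members between tissue pairs, 158 were calls. Of these, 121 were kept under all 24 alternatives and 0 changed direction. Each named member was also followed in 1 contrast. This was the top tissue over the tissue with the smallest fold change for tissue-specific members, and over the lowest tissue for the rest. Of 717 alternative values, 700 stayed on the same side of the threshold, 11 lost the call, 6 gained it and 0 reversed. Other contrasts of these members are not in that count, such as liver over brain for s2540, which changed under 5 alternatives.

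Plain library totals moved the median log2 fold change of all genes by 1.39 for brain over liver, 1.48 for ovary over liver, 0.95 for pituitary gland over liver, 0.45 for brain over pituitary gland and -0.53 for pituitary gland over ovary. DESeq2 size factors moved it by 0.21 for brain over ovary, -0.19 for ovary over liver and 0.15 for pituitary gland over ovary. With plain totals, 31 members were higher in ovary than in liver and 10 lower (20 and 17 with TMM), 28 were higher in brain than in liver and 5 lower (16 and 11), 18 were higher in pituitary gland than in liver and 7 lower (10 and 13), and 9 were higher in pituitary gland than in ovary and 21 lower (12 and 16). They gave 8 brain-specific and 2 liver-specific members, and summed levels of 1769.6 FPKM in brain, 1519 in ovary and 1307 in liver. With DESeq2 size factors the ovary sum was 960.2 FPKM. The fit on each pair gave 3 brain-specific members. Leaving out both brain replicates 3 and 4, an alternative added after the data were seen, gave 9 brain-specific members and 14 calls between brain and pituitary gland, and the 5 brain-specific members remained among the 9. The shares of all genes called were not computed under the alternatives. The member counts given for them thus have no background.

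With the replicate number as a block, calls numbered 9 for brain against pituitary gland, 33 for brain against ovary, 27 for brain against liver, 28 for pituitary gland against ovary, 22 for pituitary gland against liver and 38 for ovary against liver, each within 1 of the fit without the block. The block entered a single fit of all libraries, so that fit treated the numbers as pairs in every tissue. In pituitary gland against liver, where the numbers were taken as pairs, the block ended 1 call, pituitary gland over liver for LOC106569690 (2.23, adjusted p = 0.0024), and no other. In the other tissue pairs same-numbered libraries may or may not share a fish: the own number correlated best in 42 of 48 comparisons, and for 11 of the 16 libraries always, which is a hint from the data and not from the design.

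Depth limits the low members. For a group with no count the floor was 3 counts in each library, on average 0.264 CPM for the liver libraries and 0.111 CPM for the pituitary libraries.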
